A study of Mus musculus with 25 samples.

Results

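Smarca4 (Brg1) and Smarca2 (Brm) encode the alternative ATPases of BAF, the mammalian SWI/SNF complex. Both genes were found by symbol in all 25 files, as 2 of the 24412 symbols listed. Each file holds 1 FPKM value per gene (fragments per length of transcript and per total of mapped fragments, as made by the authors) for 1 RNA-seq library of mouse oocytes or embryos. The stages were MII oocytes (3 wild-type and 2 knockout libraries), PN3 zygotes, which are fertilised eggs with pronuclei (4 and 4), early 2-cell embryos (E2C, 3 and 3) and late 2-cell embryos (L2C, 3 and 3). Knockout (KO) is labelled Smarca4 KO, and the file headers call it Brg1-cKO. Per the labels' protocols, oocytes for sperm injection came from superovulated females 8 to 12 weeks old, either B6D2F1 hybrids or C57BL/6 females with Smarca4flox/flox and Gdf9 Cre. Gdf9 drives Cre in the oocyte, so the deletion is maternal. The labels do not tie a strain to a library, so strain and genotype cannot be told apart. The sources used here do not give the genotype of the sperm, the exons that are floxed, the number of embryos per library or whether replicates came from separate females. P-values therefore cover the spread among these libraries alone, and that spread can be technical.

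BAF complexes use the energy of ATP to slide and evict nucleosomes, which opens promoters and enhancers. A complex holds either SMARCA4 or SMARCA2 as its motor, around a shared core. The oocyte stores Smarca4 RNA and protein, and the embryo starts its own transcription at the zygote and 2-cell stages, while maternal RNA is cleared. Maternal SMARCA4 is known to be needed for development past the 2-cell stage.

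Smarca4 lies on chromosome 9 (21616169 to 21704230, plus strand, GRCm38, GENCODE M21) and Smarca2 on chromosome 19 (26605050 to 26778322, plus strand). The longest coding sequences are 4851 and 4803 bases. Because the low Smarca4 values of KO libraries would be affected by reads borrowed from the paralog, the annotated protein-coding transcripts were compared. They share 0 stretches of 31 bases or longer. Their longest identical run has 20 bases and lies in coding exon 4 of both genes, at chr9:21635745-21635764 and chr19:26630885-26630904. It is shown because it is the most that both transcripts have in common.
Smarca4 and Smarca2, shared run: atgttggccaggggccagcc
Of the 6762 distinct stretches of 150 bases, the read length, in Smarca4 transcripts, 0 occur in a transcript of another gene. At shorter lengths some do, 83 of 6511 (1.27%) at 31 bases, 54 of 6562 at 50 and 3 of 6662 at 100. The gene Gm27373 overlaps 1 annotated exon of Smarca4 on the same strand and is not among the symbols listed. The part of either in the low KO values was not tested. The antisense gene 4931403E22Rik overlaps 34 annotated exons of Smarca2. The library kit keeps strand, but the sources used here do not say whether strand was used in making the FPKM values. The level of 4931403E22Rik was between 0 and 0.533 in the 25 libraries, far under that of Smarca2.

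The promoters are printed because the RNA of the paralogs took opposite courses in the 2-cell embryo. The windows are the 250 bases before the RefSeq start (GRCm38.p6, plus strand, 5′ to 3′), chr9:21615919-21616168 for Smarca4 and chr19:26604910-26605159 for Smarca2. Capitals mark matches on either strand to GGGCGG (the GC box bound by SP and KLF factors) or to the NRF1 motif, GCGC and GCGC parted by any 2 bases.
Smarca4 promoter: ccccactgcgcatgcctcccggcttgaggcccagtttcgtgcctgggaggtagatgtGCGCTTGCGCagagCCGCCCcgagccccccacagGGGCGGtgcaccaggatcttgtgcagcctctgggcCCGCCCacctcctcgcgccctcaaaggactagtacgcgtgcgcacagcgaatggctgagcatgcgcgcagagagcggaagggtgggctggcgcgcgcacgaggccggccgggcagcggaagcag
Smarca2 promoter: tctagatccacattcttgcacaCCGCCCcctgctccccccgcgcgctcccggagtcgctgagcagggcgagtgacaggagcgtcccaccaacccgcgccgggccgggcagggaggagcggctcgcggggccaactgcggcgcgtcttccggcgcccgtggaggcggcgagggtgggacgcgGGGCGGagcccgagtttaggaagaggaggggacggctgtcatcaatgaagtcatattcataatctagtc
Both windows are rich in CG dinucleotides, with 25 in Smarca4 and 28 in Smarca2 against a median of 6 over 32851 promoter windows. The GC box matched 3 times in Smarca4 and 2 times in Smarca2, and 32.7% of all windows hold it. The NRF1 motif matched once in Smarca4 and 0 times in Smarca2, and 4.98% of all windows hold it. Neither window had a match to the CCAAT box (CCAAT, held by 33.8% of all windows) or the TATA box (TATAAA, 12.4%). The E-box (CACGTG, 6.02%), the cyclic AMP response element (TGACGTCA, 1.55%), the motif of NR5A2 (TCAAGGTCA, 0.387%) and that of the OBOX factors (GGATTA, 6.25%) were likewise without a match. A match is a description of letters, not of binding.

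The sum of FPKM lay between 216308 and 252440 per library. WT E2C replicate 2 had the fewest genes above 0, at 9345, and the other 24 libraries had 13585 to 16698. FPKM carries no read counts, so the depth is unknown and total RNA per embryo is not measured. Values below are FPKM rescaled between libraries. The stage labels set the number of cells in an oocyte or embryo. A value is relative to the other RNA of its library and is not an amount per cell. All 12 oocyte markers, among them the zona gene Zp3, were at an FPKM of at least 1 in every MII and PN3 library. All 16 markers of the 2-cell programme were at least at 1 in every E2C library.

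Smarca4 RNA was present in every wild-type (WT) library and nearly absent from KO oocytes and zygotes. In WT oocytes it stood at 25.97, 27.6 and 30.5, and in KO oocytes at 0.219 and 0.221. In WT zygotes it stood at 29.6, 30.7, 30.8 and 33.2, and in KO zygotes at 0.331, 0.448, 0.259 and 0.222. The genotypes were far apart at both stages, with no overlap. The KO mean was 0.786% of the WT mean at MII, where the extreme pairs of libraries gave 0.718% and 0.851%. It was 1.01% at PN3, with extremes of 0.669% and 1.51%. Smarca4 lay between percentiles 81.9 and 86.6 of the 12079 genes tested in these WT libraries, and between 10.2 and 14.2 in the KO libraries. The log2 difference was -4.57 ± 0.09 (SE, n = 3 WT and 2 KO) at MII and -4.61 ± 0.10 (n = 4 each) at PN3, with limma adjusted p of 3.95e-21 and 1.39e-19. At both stages Smarca4 had the largest absolute difference of all genes tested. At MII 13% of all genes were called (adjusted p under 0.05) in either direction, and at PN3 3.05%.

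The remaining 0.219 to 0.448 of KO oocytes and zygotes is a per-gene value, and it does not show which exons the reads came from. Markers of cumulus and granulosa cells, which surround the oocyte and are outside the reach of Gdf9 Cre, were low in both genotypes. Their summed FPKM was 5.56 to 5.73 in KO and 5.98 to 6.96 in WT oocytes, and 4.38 to 5.95 against 4.83 to 6.31 at PN3. Of the 15 markers 1, Cyp19a1 (aromatase), reached an FPKM of 1 there. In the KO oocytes and zygotes Lhcgr, Inha, Ptx3, Tnfaip6 and Amhr2 were listed at 0. Each of the other markers was above 0 in at least 1 of these libraries. After Cyp19a1 the highest values were 0.247 for Has2, 0.182 for Star and 0.143 for Cyp11a1. The part of such cells in the remaining Smarca4 value was not tested.

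**Figure D1:**
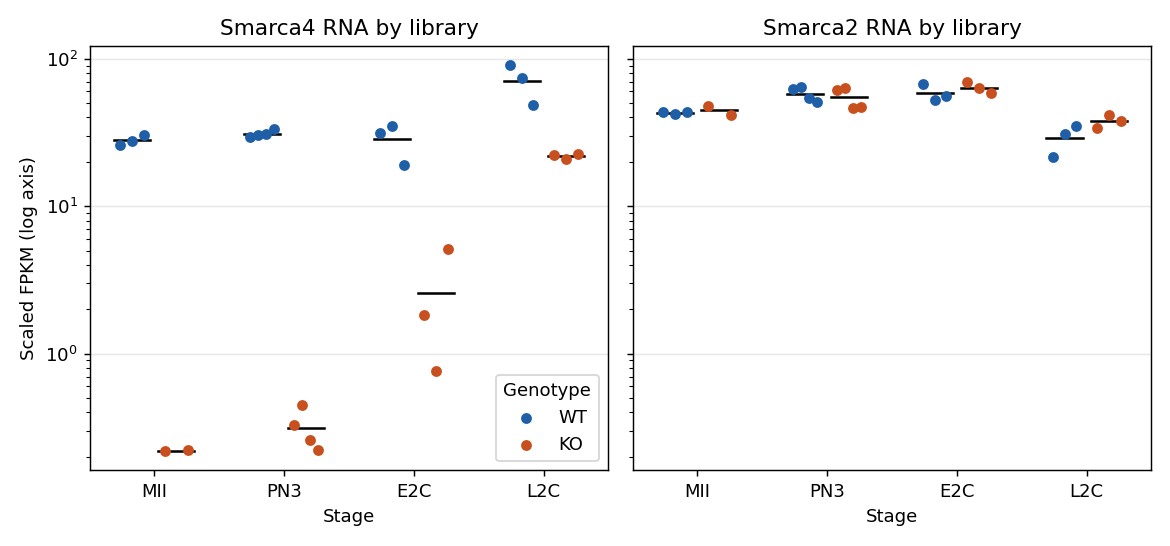
Smarca4 (left) and Smarca2 (right) in each of the 25 libraries, as scaled FPKM on a log axis, by stage, with WT in blue and KO in orange. Points are libraries and black bars are group means. Mean KO Smarca4 climbed from 0.220 at MII to 21.96 at L2C, while Smarca2 libraries of both genotypes overlapped at every stage.

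Smarca4 RNA returned in KO embryos at the 2-cell stages. KO E2C libraries stood at 1.82, 0.767 and 5.12, each above all 4 KO zygote libraries, and the highest was replicate 3. The rise from PN3 was 1.25 ± 0.26 on the log2 scale (limma adjusted p = 0.00146), and the means differed 8.16-fold. Of all genes, 8.87% were called higher in this step. Without KO E2C replicate 3 the rise was 0.77 and no longer passed (adjusted p = 0.0710), and the means differed 4.11-fold. Both libraries left lay above every KO zygote, and the share of all genes that separate so was not computed. With a pseudocount of 0.1 the rise was 2.34, and with TPM 1.99, since the +1 scale compresses values this low. The replicate that led in Smarca4 also led in the summed 2-cell markers, at 273 against 131 and 157, and in the oocyte markers, at 1808 against 1320 and 1429. The 2-cell marker gene Zscan4d stood at 11.7, 8.82 and 32.7 in the same order. Their part in the Smarca4 values was not tested.

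The larger rise came between E2C and L2C. KO L2C libraries stood at 22.4, 21.0 and 22.5, close to each other and above all KO E2C libraries. The rise was 2.88 ± 0.34 (limma adjusted p = 4.77e-07), and 26.8% of all genes were called higher. The means differed 8.55-fold, and 16.98-fold without KO E2C replicate 3, where the log2 rise was 3.36. Without KO E2C replicate 2 the log2 rise was 2.47. Smarca4 was number 276 from the top among the 12079 genes, ordered by this rise. Over the whole interval from MII to L2C KO Smarca4 rose by 4.23 (adjusted p = 3.98e-13), in a comparison where 68.7% of genes were called, 38% higher.

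In WT embryos no change of Smarca4 was called up to E2C, and a rise followed. From MII to PN3 the log2 change was 0.15 (95% interval -0.05 to 0.34, limma adjusted p = 0.216). From PN3 to E2C it was -0.17 (-0.70 to 0.37, adjusted p = 0.666), so this fit does not exclude a fall there. Neither step was called, while 45.2% and 31% of all genes were. WT E2C libraries stood at 31.4, 34.9 and 18.98, and replicate 3 was the low one. WT L2C libraries stood at 90.4, 74.0 and 48.5, all above every earlier WT library. The rise was 1.29 ± 0.34 (adjusted p = 0.00259), against 34.1% of all genes called higher. From MII to L2C it was 1.27 (adjusted p = 3.94e-05), against 40.4%.

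Measured in FPKM units, the gain from E2C to L2C was 19.4 ± 1.39 (SE) in KO and 42.6 ± 13.1 in WT, so the KO gain was 45.6% of the WT gain. This difference of gains was not tested on the FPKM scale. On the log2 scale the KO effect shrank by 1.42 from PN3 to E2C and by 1.59 from E2C to L2C. From MII to PN3 the KO effect changed by -0.04 (limma adjusted p = 0.951), where 2.29% of genes were called. As differences between stages the later 2 were not called over all genes (limma adjusted p = 0.492 and 0.264, unadjusted p = 7.99e-04 and 0.00288). At these steps 0% and 0.00828% of genes were called, and 642 and 1381 genes had an unadjusted p under 0.05. The first value was 0.93 without KO E2C replicate 3 and 2.51 with a pseudocount of 0.1. The second was called with 1 spread shared by all stages (adjusted p = 0.0334) and with 1 weight per library (0.0247). In simulated data 72.4% and 56.2% of calls for KO minus WT at E2C and L2C were false with the shared spread. The fit with 1 weight per library was not simulated.

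**Figure D2:**
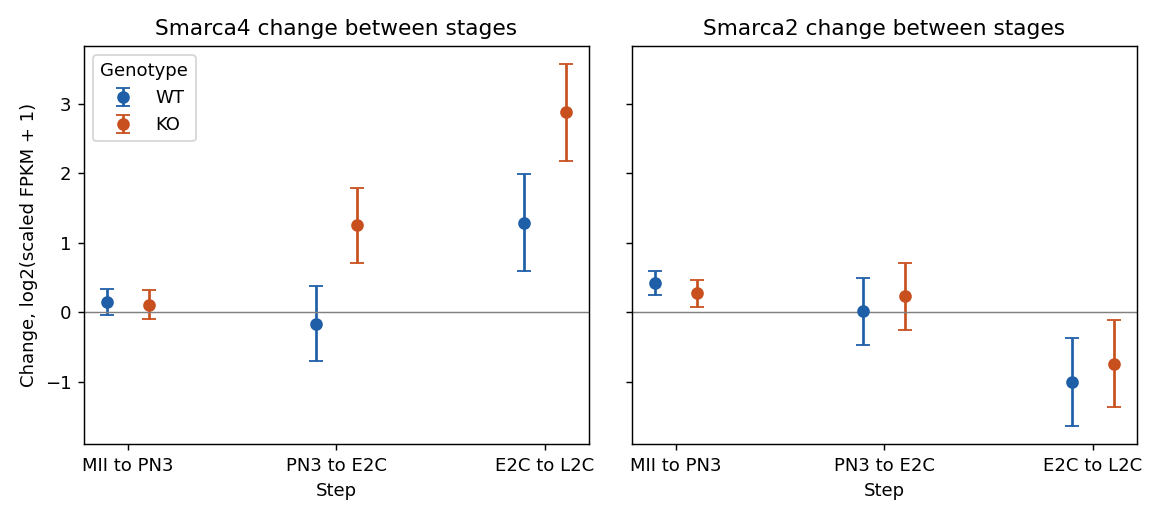
Change of Smarca4 (left) and Smarca2 (right) between successive stages, as the difference of log2(scaled FPKM + 1) with its 95% interval, for WT (blue) and KO (orange). From E2C to L2C Smarca4 rose by 1.29 in WT and 2.88 in KO, while Smarca2 moved by -1.01 and -0.74.

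KO Smarca4 stayed below WT at both 2-cell stages. At E2C the KO mean was 9.03% of the WT mean (extreme pairs of libraries 2.20% and 27.0%), and the log2 difference was -3.19 ± 0.35 (limma adjusted p = 5.90e-05). Smarca4 was the 1 gene called of the 12079 tested (0.00828%). At an unadjusted p under 0.05, 722 genes differed. At L2C the KO mean was 30.9% of WT (extremes 23.3% and 46.3%), with a difference of -1.60 ± 0.32 (adjusted p = 0.0213), and 0.770% of all genes were called. Every KO library lay below every WT library at both stages. With only the libraries of 1 stage in the fit, neither difference was called (adjusted p = 0.431 at E2C and 0.295 at L2C). At L2C the call was also lost with a replicate block (0.05003), with a pseudocount of 0.1 (0.0589), without WT replicate 1 (0.192) or 2 (0.149), and without KO replicate 2 (0.184) or 3 (0.194).

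The WT L2C libraries differed among themselves, and the stage markers differed with them. Smarca4 was lowest in replicate 3, at 48.5. The summed 2-cell markers stood at 156, 183 and 547 in WT replicates 1 to 3 and at 343, 466.2 and 462 in KO. Zfp352, one of the 2-cell markers, stood at 19.8, 18.6 and 72.6 in WT and 50.9, 73.4 and 70.2 in KO. The oocyte markers stood at 373, 458 and 906 in WT and 777, 1000 and 1034 in KO. WT replicate 3 was thus nearest to the KO libraries in both lists and in Smarca4, and still stood at more than any KO library in Smarca4. At E2C the summed 2-cell markers stood at 280, 340 and 516 in WT and at 131, 157 and 273 in KO, all KO values below all WT values. The oocyte markers there stood at 1318, 1248 and 1658 in WT and at 1320, 1429 and 1808 in KO, and overlapped. The part of stage progress in the E2C and L2C differences was not tested.

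Ordered by mean, Smarca4 was highest in WT L2C (71.0 ± 21.1, SD, n = 3), followed by WT PN3 (31.1 ± 1.49, n = 4), WT E2C (28.4 ± 8.37, n = 3) and WT MII (28.0 ± 2.31, n = 3). The last 3 overlapped as neighbours in this order. Then came KO L2C (21.96 ± 0.807, n = 3), KO E2C (2.57 ± 2.27, n = 3), KO PN3 (0.315 ± 0.0997, n = 4) and KO MII (0.220 ± 0.00136, n = 2), whose ranges did not overlap with those of their neighbours. The last pair was separated by a hair, from 0.221 to 0.222, and its difference was not called (limma adjusted p = 0.452).

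Smarca2 RNA was abundant in every library, whatever the genotype. It stood at 43.4, 42.3 and 43.4 in WT oocytes and at 48.2 and 41.5 in KO oocytes. In zygotes it stood at 62.7, 64.6, 53.8 and 51.1 in WT and at 61.1, 63.6, 46.7 and 47.1 in KO. In both genotypes replicates 1 and 2 lay above replicates 3 and 4. No label says what the replicate numbers share. WT E2C libraries stood at 68.0, 52.2 and 55.8 and KO E2C libraries at 69.3, 63.0 and 58.7. WT L2C libraries stood at 21.4, 30.7 and 34.8 and KO L2C libraries at 33.8, 41.6 and 37.99. The genotypes overlapped at every stage.

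Smarca2 did not pass the test between KO and WT at any stage. The log2 difference, with its 95% interval, was 0.05 (-0.11 to 0.22) at MII, -0.09 (-0.29 to 0.10) at PN3, 0.12 (-0.54 to 0.78) at E2C and 0.39 (-0.21 to 0.99) at L2C. The limma adjusted p-values were 0.760, 0.706, 0.998 and 0.495. At PN3 each KO library lay below the WT library of the same number. With a replicate block the PN3 difference was -0.09 ± 0.05 (SE, limma adjusted p = 0.243). The intervals at MII and PN3 are narrow. Those at E2C and L2C are wide enough to hold a rise of more than 0.7 (log2) in KO, so this fit does not exclude a rise of that size there. At L2C the KO mean was 130% of the WT mean, with extreme pairs at 97.0% and 194%. Without WT L2C replicate 1, the lowest library, the difference was 0.20. The KO effect on Smarca2 was not called as different between any successive stages (adjusted p of 0.652, 1 and 0.840).

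**Figure D3:**
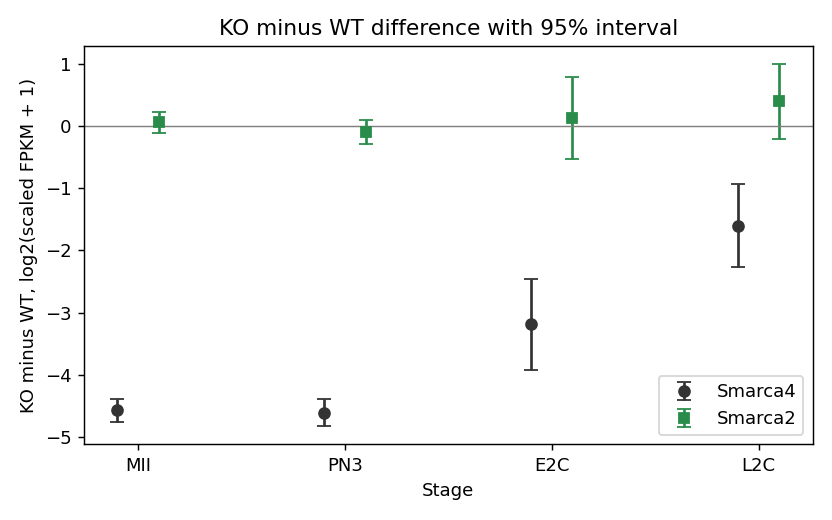
KO minus WT difference of Smarca4 (circles) and Smarca2 (squares) at each stage, in log2(scaled FPKM + 1) with 95% intervals from limma. Smarca4 went from -4.57 at MII to -1.60 at L2C, and all 4 intervals of Smarca2 include 0.

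Between stages Smarca2 rose early and fell late. From MII to PN3 it rose by 0.42 ± 0.08 in WT (limma adjusted p = 2.54e-04), where 19.2% of all genes were called higher, and by 0.27 ± 0.09 in KO (adjusted p = 0.0213), where 17.6% were. The KO rise was lost without KO MII replicate 2 (adjusted p = 0.209), KO PN3 replicate 1 (0.0928) or KO PN3 replicate 2 (0.111), and with only these libraries in the fit (0.173). From PN3 to E2C the change was 0.01 in WT and 0.23 in KO, and neither was called, while 31% and 21.1% of all genes were. From E2C to L2C Smarca2 fell by 1.01 on the log2 scale in WT (adjusted p = 0.00785), against 18.3% of all genes called lower. In KO the change was -0.74 ± 0.31 and missed the threshold (adjusted p = 0.0568). All KO L2C libraries lay below all KO E2C libraries, and the share of all genes that separate so was not computed. The KO fall was called with only these libraries in the fit (adjusted p = 0.00176) and with a replicate block (0.0247). It was also called with 1 spread shared by all stages (3.97e-04) and with 1 weight per library (0.00218). In simulated data 60.8% of calls in this step were false with the shared spread. The fit with 1 weight per library was not simulated. From MII to L2C Smarca2 fell by 0.58 in WT (adjusted p = 0.0171, against 33.3% called lower), and the call was lost without WT L2C replicate 1 (-0.39, adjusted p = 0.167). In KO the value was -0.24 (adjusted p = 0.322).

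By mean the order of Smarca2 was KO E2C (63.7 ± 5.35, SD, n = 3), WT E2C (58.6 ± 8.29, n = 3), WT PN3 (58.1 ± 6.59, n = 4), KO PN3 (54.6 ± 8.99, n = 4), KO MII (44.8 ± 4.73, n = 2), WT MII (43.0 ± 0.653, n = 3), KO L2C (37.8 ± 3.91, n = 3) and WT L2C (29.0 ± 6.86, n = 3). The only neighbours whose ranges did not overlap were WT MII and KO L2C.

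FPKM is per length, so the values of the paralogs were set beside each other and summed. GENCODE M21 lists 46 transcripts of Smarca2, 27 of them protein-coding with coding lengths of 204 to 4803 bases. Smarca4 has 4, all protein-coding, with 3800 to 4851 bases. The FPKM values do not show which transcripts were present or what length was used. Shares and sums of the paralogs depend on both. Smarca4 made up 37.4% to 41.3% of the sum in WT oocytes, 32.1% to 39.3% in WT zygotes and 25.4% to 40.1% at WT E2C. At WT L2C it made up 80.8%, 70.7% and 58.2%, so the higher FPKM of the paralogs switched from Smarca2 to Smarca4 in all 3 libraries. In KO the share of Smarca4 was 0.453% to 0.699% at MII and PN3, and 2.56%, 1.20% and 8.02% at E2C. At KO L2C it reached 39.9%, 33.6% and 37.1%, and Smarca2 kept the higher FPKM in all 3 libraries.

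The summed FPKM of both ATPases was lower in KO at every stage, with no overlap. At MII it was 48.4 and 41.7 in KO and 69.4, 69.9 and 73.9 in WT. At PN3 it was 61.5, 64.1, 46.9 and 47.4 in KO and 92.3, 95.3, 84.6 and 84.3 in WT. At E2C it was 71.1, 63.8 and 63.8 against 99.4, 87.1 and 74.7, and at L2C 56.2, 62.6 and 60.4 against 112, 105 and 83.4. The KO mean was 63.4%, 61.7%, 76.1% and 59.8% of the WT mean in the order of the stages. An exact permutation test over libraries (two-sided) gave p = 0.0286 at PN3, the smallest that 4 against 4 allows, and p = 0.1 at each other stage, the smallest that 3 against 2 or 3 against 3 allows. Adjusted over the 4 stages, each exact p was 0.1, the lowest that these group sizes allow, so no call was possible. The log2 ratio of Smarca4 to Smarca2, which does not depend on library scaling apart from the pseudocount, differed by -4.62, -4.52, -3.31 and -1.997 in the same order, with the same exact p-values. With a pseudocount of 0.1 the values were -6.51, -6.16, -3.87 and -2.05, so the size of the first 2 depends on the pseudocount. Smarca4 is the deleted gene, so a lower ratio in KO was set beforehand, as was a lower sum unless Smarca2 rose to match. Neither the sum nor the ratio is separate support for the Smarca4 difference.

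**Figure D4:**
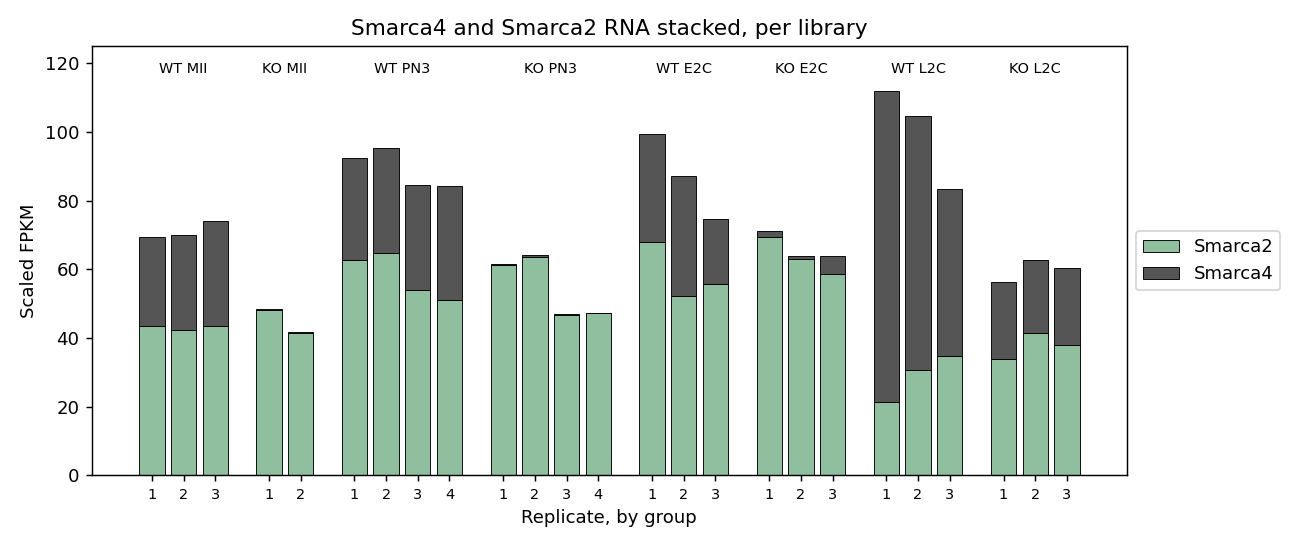
Scaled FPKM of Smarca2 (green) and Smarca4 (grey) stacked for each library, grouped by stage and genotype, with replicate numbers on the x axis. The KO columns are lower than the WT columns at every stage, and Smarca4 is the larger part only in the 3 WT L2C libraries.

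Of the other subunits of the complex, only some that define its subtypes were called between genotypes, at MII and L2C. Of 12 core subunits, such as the scaffold proteins Smarcc1 and Smarcc2, 10 were tested and 0 were called between KO and WT at any stage. Over all genes 13%, 3.05%, 0.00828% and 0.770% were called from MII to L2C, so a count of 0 among 10 is near the background. Their median log2 difference was 0.05, 0.03, 0.07 and 0.00 from MII to L2C, beside 0.00, 0.00, 0.05 and -0.05 over all genes. The largest value was -0.84 for Smarcc1 at L2C (limma adjusted p = 0.108). Of 18 names of subunits that define the BAF subtypes, 16 were in the files and 14 were tested. At MII 4 were higher and 1 lower, where 5.99% and 6.99% of all genes were called. Ss18, a subunit of canonical and non-canonical BAF, averaged 50.0 ± 0.0944 (SD, n = 2) in KO oocytes and 41.7 ± 0.502 (n = 3) in WT oocytes, with a log2 difference of 0.26 (limma adjusted p = 3.42e-04). Arid1b, a DNA-binding subunit of canonical BAF, differed by 0.27 (adjusted p = 7.49e-04), Arid2 of PBAF by 0.26 (0.00877) and Gltscr1l of non-canonical BAF by 0.27 (0.00394). Dpf3, a histone reader of canonical BAF, averaged 48.0 ± 2.76 in KO oocytes and 62.3 ± 1.41 in WT oocytes, a log2 difference of -0.37 (adjusted p = 8.41e-04). None of these 5 calls held with 1 spread shared by all stages, where Smarca4 was the 1 gene called at MII. With MII alone in the fit, Arid1b and Gltscr1l were not called (0.0866 and 0.0613). Gltscr1l was also lost with a replicate block (0.0572), and Arid2 with FPKM as deposited (0.0502) and without WT MII replicate 2 (0.0585). At PN3 and E2C 0 subtype subunits were called.

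At L2C 1 subtype subunit was called, where 0.323% of all genes were called lower. It was Brd9, the bromodomain subunit of non-canonical BAF, which stood at 4.94, 10.4 and 8.83 in KO and at 27.2, 20.0 and 10.5 in WT, so the genotypes barely missed each other at WT replicate 3. The log2 difference was -1.12 (limma adjusted p = 0.0406). The call was lost with L2C alone in the fit (0.295), without a filter (0.0524), with a replicate block (0.0668) and without any 1 of the KO libraries (0.0968 to 0.193) or WT replicate 1 (0.318) or 2 (0.248). Of 28 other SNF2-family ATPases, the motors of the ISWI, CHD and INO80 remodelers among them, 27 were tested. At MII 1 of the 27 was called higher and 1 lower, where 5.99% and 6.99% of all genes were, so these counts are not above the background. Srcap, which deposits H2A.Z, was higher by 0.19 (adjusted p = 0.0344) and Hells, a remodeler linked to DNA methylation, lower (-0.33, adjusted p = 0.00641). Both calls were lost with MII alone in the fit and with 1 spread shared by all stages, that of Hells also without KO MII replicate 1 (0.0808), and that of Srcap in 9 of 13 other settings. Those were FPKM as deposited (0.144), 1 weight per library (0.0687), a replicate block (0.0605), both fits named and the loss of any MII library other than KO replicate 2 (0.0544 to 0.222). At PN3, E2C and L2C 0 of the 27 were called, which is near the background of 3.05%, 0.00828% and 0.770%. At PN3 the largest differences over the 3 lists were -0.25 for Smarca5, the ISWI motor (adjusted p = 0.0613), -0.24 for Dpf3 (0.119) and 0.23 for Chd1 (0.131). At E2C they were 0.70 for Phf10, a PBAF subunit (adjusted p = 0.832), 0.60 for Rad54b, which acts in recombination (0.874), and 0.53 for Chd5 (0.832). At L2C, after Brd9 and Smarcc1, they were -0.73 for Dpf2 of canonical BAF (adjusted p = 0.237) and -0.72 for Ino80 (0.184).

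**Figure D5:**
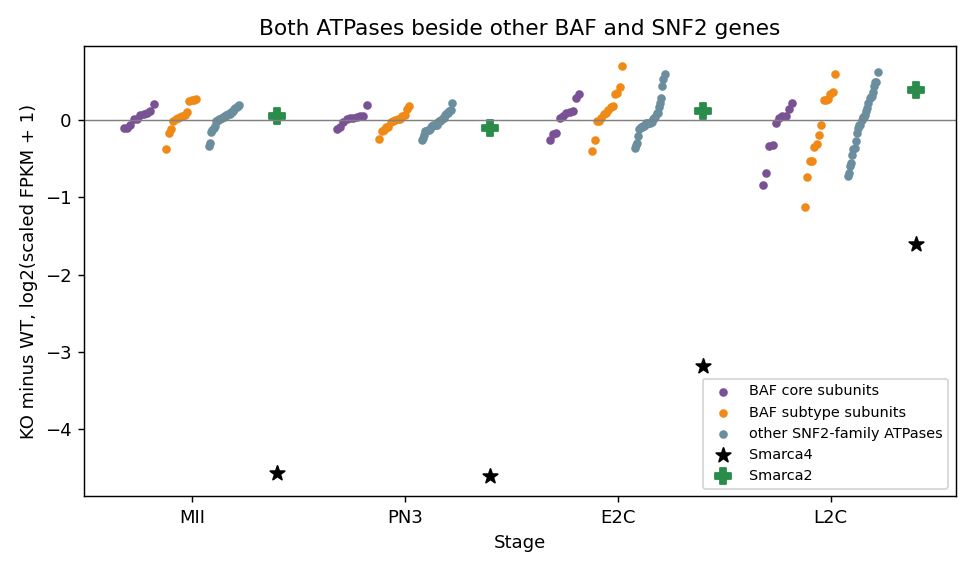
KO minus WT difference in log2(scaled FPKM + 1) at each stage for 10 BAF core subunits, 14 BAF subtype subunits and 27 other SNF2-family ATPases (dots), beside Smarca4 (star) and Smarca2 (plus). Smarca4 lies below all dots at every stage, and the lowest dot, at -1.12, is Brd9 at L2C.

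Between stages, members of the BAF lists were called in the following numbers. From E2C to L2C in WT, where 34.1% of all genes were called higher and 18.3% lower, 2 core subunits rose and 3 fell of 10 tested, and 5 subtype subunits rose and 5 fell of 14. In KO, where 26.8% were called higher and 14% lower, 2 core subunits rose and 3 fell, and 4 subtype subunits rose and 5 fell. From MII to PN3 3 core subunits rose and 4 fell in WT, and 3 rose and 3 fell in KO. In the same step 9 of 14 subtype subunits rose and 0 fell in WT, and 7 rose and 0 fell in KO, beside 19.2% and 17.6% of all genes called higher and 26.1% and 23.2% called lower. For the KO step, 40.8% of all genes were called in either direction.

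The genes with the course most like that of Smarca4 across the 13 WT libraries were Zfp568, a zinc finger repressor (Pearson r = 0.976), Polr2m, a component associated with RNA polymerase II (0.971), Hira, the chaperone of histone H3.3 (0.971), Ppfia1 (0.970) and Usp36, a nucleolar deubiquitinase (0.970). Each of the 5 had its highest WT group mean at L2C, as with Zfp568 at 6.43, 6.55, 5.90 and 25.2 from MII to L2C. Their earlier courses were not alike. Hira averaged 4.47 at PN3 and 3.08 at E2C, and Usp36 averaged 6.04 at MII and 7.85 at PN3, in both cases with no overlap of the libraries. Smarca2 and Smarca4 had an r of -0.81 over the 13 WT libraries, -0.56 over the 12 KO libraries and -0.42 over all 25. Across the 12 KO libraries the genes most like Smarca4 were Gm11544 (0.998), Rpp25, a subunit of RNase P (0.998), Cpt1a, which brings fatty acids into mitochondria (0.997), Ccdc137 (0.996) and Gcsh of the glycine cleavage system (0.996). These are genes at or under an FPKM of 1 in KO oocytes that rose in the embryo. Gcsh, for instance, averaged 0.651 at KO MII and 122 at KO L2C. The genes most like Smarca2 over all 25 libraries were Fgd6 (0.951), Lmo7 (0.930), Zfp57, which protects imprints (0.925), Smad2, a signal carrier of the TGF-beta family (0.921), and Whamm (0.921). Zfp57 went from 846 at WT MII to 1393 at E2C and 269 at L2C, and Fgd6 from 30.1 to 37.2 and 20.7. These correlations describe points that share 4 stages. How much of each lies within stages was not computed.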

How the data were processed

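The authors deposited 1 FPKM file per library. Per the submitters' processing notes the tools were HISAT2, HTSeq, StringTie and Trim Galore 0.4.5, with builds GRCm38 and mm10. No role or order is stated, so which tool made the FPKM values is unknown here. FPKM values come without read counts, and whole reads were not recovered from them. A low value has an unknown counting error.

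Libraries were rescaled by the median ratio over 6492 genes at an FPKM of at least 1 in all 25 libraries. Genes at 1 or more in at least 3 libraries (12079) were fitted as log2(FPKM + 1) with limma 3.58.1 in R 4.3.3: 8 group means, 1 variance factor per stage (arrayWeights), trended and robust variances. Benjamini-Hochberg adjustment covered the whole table, and an adjusted p under 0.05 was called. Fold changes on this scale understate the change of low genes.

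Replicates spread more at the 2-cell stages, with a median SD (log2) of 0.352 for E2C and 0.322 for L2C, against 0.077 for MII and 0.128 for PN3. The fit was tested on simulated data (9879 genes, 200 changed, 5 simulations of independent noise). For KO minus WT, false calls made up 25.2%, 18.3%, 28.8% and 26.6% of calls from MII to L2C with 1 variance factor per stage, 0.245%, 1.21%, 72.4% and 56.2% with 1 shared spread, and 3.28%, 4.02%, 4.17% and 3.12% with only the groups compared. That last fit recovered 63.2% and 79.0% of 4-fold changes at E2C and L2C, and the main one 86.4% and 92.2%. For the KO step from PN3 to E2C false calls were 25.7%, 40.4% and 13.0% of calls in the same order of fits, and from E2C to L2C 17.6%, 60.8% and 7.45%. These shares depend on the 200 genes changed.

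Named genes were both members, pathway genes called between genotypes or, where few were, those with the largest differences, the 5 genes most like a member by Pearson r in each set of libraries, and Zscan4d and Zfp352 as stage markers. The members and lists were chosen with earlier results of these data known. Promoters come from RefSeq (GRCm38.p6), transcripts from GENCODE M21, and both members matched. Sperm and blood marker lists, also measured, summed to at most 20.8 (KO E2C replicate 2) and 5.16. Figures were drawn with matplotlib 3.10.9. Alternatives are in the closing section.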

Additional observations from a re-analysis of the deposited data

How the results depend on the processing

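For 38 results on Smarca4 and Smarca2, 240 of the values under other settings kept their direction and their side of the threshold. Of the rest 7 lost the call, 6 gained it and 7 turned. With 1 library left out 263 values kept both, 9 lost the call, 0 gained it and 6 turned. These counts include the ratio and the sum of the paralogs, whose adjusted exact p could not pass the threshold, so only their direction could change. The cause of the exceptions was not tested. Smarca4 KO minus WT lost its call at E2C with only the groups compared (-3.19) and at L2C with only the groups compared (-1.60), a pseudocount of 0.1 (-1.64) and a replicate block (-1.60, adjusted p = 0.05003), and it ranged from -1.85 to -1.41 with L2C libraries left out. Smarca2 from MII to PN3 lost its call with 1 shared spread (0.42 in WT and 0.27 in KO) and, in KO, with only the groups compared (0.27; 0.16 to 0.37 with libraries left out). Smarca2 from MII to L2C in WT ranged from -0.72 to -0.39 and Smarca4 from PN3 to E2C in KO from 0.77 to 1.66. Calls were gained for Smarca2 from E2C to L2C in KO with 1 shared spread, only the groups compared and a replicate block (-0.74 each) and 1 weight per library (-0.71). The change of the Smarca4 KO effect from E2C to L2C was gained with 1 shared spread (1.59) and 1 weight per library (1.53).

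Signs turned only where no difference was called. Smarca2 KO minus WT was 0.041 at PN3 with 1 weight per library and ranged from -0.051 to 0.16 at MII. Smarca2 from PN3 to E2C in WT was -0.21 as deposited, -0.094 with TPM and -0.046 with a replicate block, and ranged from -0.10 to 0.090. Smarca4 in the same step ranged from -0.33 to 0.091. The Smarca4 KO effect from MII to PN3 was 0.19 with a pseudocount of 0.1, 0.095 with TPM and 0.0060 with 1 weight per library, and ranged from -0.10 to 0.011.

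Same-numbered WT and KO libraries did not deviate together throughout (r from -0.18 at L2C to 0.43 at PN3), so the numbers were not taken as pairs in the main fit. At PN3 r was 0.01, 0.37, 0.12 and 0.43 for replicates 1 to 4, so a shared deviation at that stage is not excluded. With the block the genes called became 879, 1084, 1 and 152 in the order of the stages, against 1567, 369, 1 and 93. They were 1, 10, 212 and 1873 with 1 shared spread, 424, 94, 0 and 0 with only the groups compared, and 666, 24 and 3692 at PN3, E2C and L2C with 1 weight per library. At E2C 5 were called without a filter. Leaving out libraries gave 767 to 2045 (767 and 952 without WT MII replicates 2 and 1), 171 to 374 (171 and 215 without KO PN3 replicates 3 and 4, 220 without WT PN3 replicate 3), 1 to 17 (17 and 6 without WT E2C replicates 2 and 3, 3 without KO E2C replicate 3) and 4 to 2587 (2587 without WT L2C replicate 3, and 4 to 6 without WT replicates 1 or 2 or KO replicates 2 or 3). From PN3 to E2C in KO 2544 became 4646 with 1 weight per library and 785, 1134 and 1372 without KO E2C replicates 1, 2 and 3. From MII to PN3 1 shared spread gave 1342 in WT, against 5464, and 716 in KO, against 4934. From PN3 to E2C in WT 3741 became 2111 with only the groups compared. The change of the KO effect from E2C to L2C had 1 call, and 771 with 1 shared spread, 1381 with 1 weight per library, 9 without a filter and 0 to 840 with libraries left out (840 without WT L2C replicate 3). From MII to PN3 its 277 calls became 0 with 1 shared spread, 445 with 1 weight per library and 115 with only the groups compared (136 to 644 with libraries left out, 644 without KO MII replicate 2 and 136 without WT MII replicate 2), and from PN3 to E2C its 0 became 10 with 1 weight per library and 3 without a filter. Of 105 values of the 8 other genes called between genotypes, 30 lost the call and 0 turned.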
